A study of Mus musculus with 6 samples.

Results

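The genes described here are 32 that mark connective tissue cells, the cells that wrap vessels, and smooth muscle, picked by symbol out of the 23420 genes in the deposited count table. They were read in sorted endothelial cells, which line vessels and are not the usual source of such transcripts. By their known roles, 15 are fibroblast-type genes (matrix proteins and transcription factors of mesenchyme), 4 are genes of pericytes and other mural cells, and 13 are genes of the contractile machinery. All cells came from whole mouse embryos at embryonic day 12.5 of the strain Csf1r-iCre;RosatdTomato. In these embryos a Cre recombinase under the Csf1r promoter switches on a tdTomato reporter at the Rosa26 locus, in cells with Csf1r promoter activity and in all their descendants. Endothelial cells were sorted as positive for PECAM1 and negative for CD45, CD11b and KIT, and were then split into a tdTom+ and a tdTom- fraction of 3 libraries each. Both fractions thus came from embryos of the same genotype and were taken from whole embryos. The share of each organ in each fraction was not measured. The question was whether endothelial cells with a Csf1r-iCre history differ in expression from the other endothelial cells.

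Fibroblasts secrete small leucine-rich proteoglycans such as decorin and lumican together with collagens, and their identity depends on transcription factors such as TWIST1 and PRRX1. Pericytes and smooth muscle cells sit outside the endothelial tube. Smooth muscle contracts when myosin light chain kinase phosphorylates the regulatory light chain of myosin, which then pulls on actin filaments bearing tropomyosin and calponin. Many smooth muscle genes are switched on by the serum response factor SRF with its partner myocardin, which bind a promoter element known as the CArG box. Endothelial cells have an actomyosin system of their own, built mainly from non-muscle isoforms, and some factors named after mesenchyme, SNAI2 among them, are also active in endothelium.

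The libraries held 8919887 to 11767956 reads counted to genes. Reads were found for 15300, 14432 and 14748 genes in tdTom+ libraries 1 to 3. In tdTom- libraries 1 to 3 they were found for 16070, 16109 and 15850 genes. Transcripts of 12 endothelial marker genes summed to between 8659 and 9197 CPM (reads of a gene scaled to the same normalised library total) in all 6 libraries. None of the 12 passed the test between fractions (edgeR, with 1 at an unadjusted p under 0.05 and 0 calls with DESeq2). The smallest p belonged to Pecam1, Cdh5 and Eng, at log2 ratios of tdTom+ over tdTom- of -0.16, 0.16 and 0.20. The fractions did not overlap for Pecam1, lower in tdTom+, and for Cdh5, higher in tdTom+, beside 9.35% and 7.88% of all tested genes. Among genes for the proteins gated against, Ptprc (CD45) and Itgam (CD11b) were scarce, with at most 22 and 12 counts in a library. Kit, which is transcribed in endothelium too, had 950, 1023 and 890 counts in tdTom+ and 1159, 1435 and 1108 in tdTom- libraries. It was lower in tdTom+ with DESeq2 (adjusted p = 0.00485) and did not pass with edgeR (adjusted p = 0.0581). The numbers 1 and 2 had reads of the Y-linked gene Ddx3y and hardly any of Xist in both fractions, and number 3 the reverse, so that libraries 3 came from female cells.

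Of the 32 genes, 28 had enough reads for edgeR's filter, 1 was higher and 1 was lower in tdTom+ cells, and 26 did not pass (edgeR's quasi-likelihood test, adjusted p under 0.05). That is 7.14% of those tested, beside 1.58% of all 13142 tested genes in either direction, 0.769% higher and 0.814% lower. Mylk, the myosin light chain kinase gene, rose, and Actn2, which encodes the sarcomeric crosslinker alpha-actinin-2, fell. Both belong to the contractile group. No fibroblast-type gene passed (edgeR, with 2 at an unadjusted p under 0.05 and 1 call with DESeq2) and no mural gene did (0 and 0), although 13 of the 15 fibroblast-type genes had a fold change below 0, where 50% of all tested genes did. The log2 ratio (tdTom+ over tdTom-, the fitted fold change on the log2 scale) had a median of -0.44 over the fibroblast-type genes, 0.20 over the 3 tested mural genes and -0.10 over the 10 tested contractile genes, against -0.00026 over all genes. When the replicate number entered as a block, 1 gene rose (Mylk) and 1 fell (the lumican gene Lum), beside 0.974% and 1.27% of all genes and 2.24% in either direction. With DESeq2, 1 rose (Mylk) and 2 fell (Lum and Actn2), beside 1.39% and 1.92% of all genes and 3.32% in either direction. The fractions did not overlap, with tdTom+ lower, in 4 of the 28 genes (14.3%, beside 9.35% of all genes). They did not overlap with tdTom+ higher in 1, Mylk, beside 7.88% of all genes. In sorted bulk cells, fewer cells of a type and less RNA per cell cannot be told apart.

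**Figure D1:**
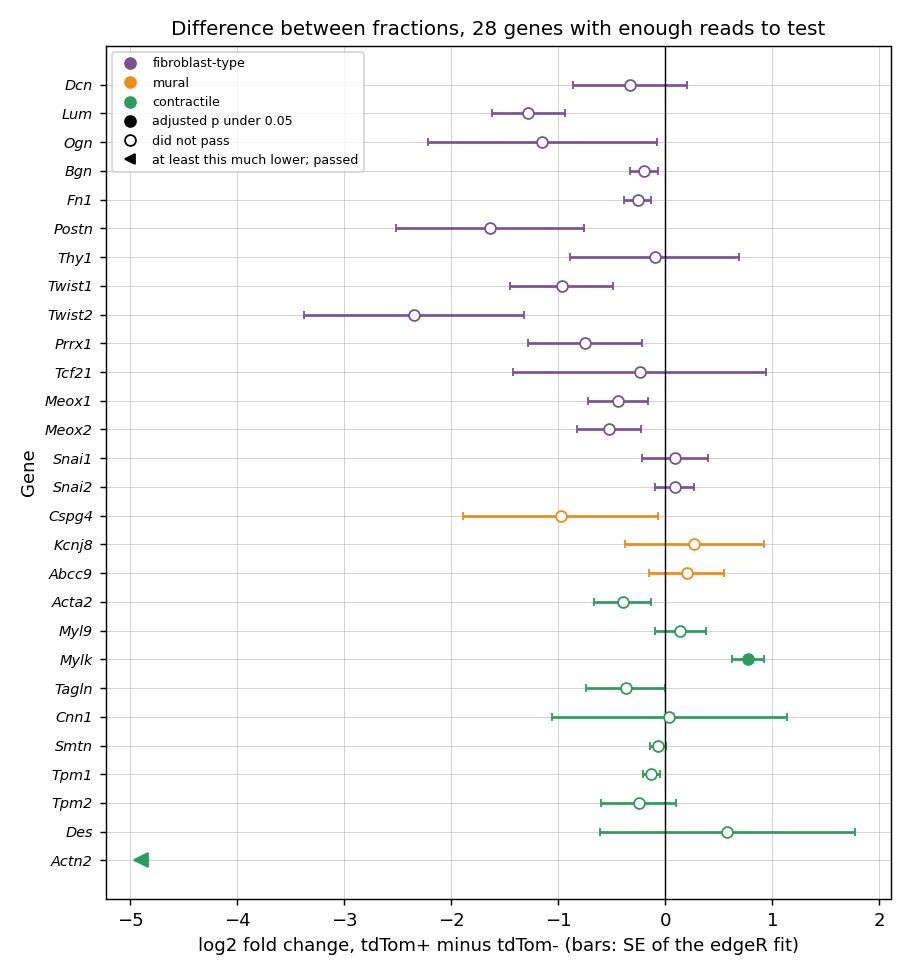
The horizontal axis gives the log2 ratio of tdTom+ over tdTom- for the 28 tested genes, with the SE of the fit as bars and colours for the 3 groups of genes. Filled symbols passed: Mylk at 0.77, and Actn2, drawn as an arrowhead at its bound for counting error because it had no reads in tdTom+ libraries. Most fibroblast-type genes lie left of 0 with wide bars.

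Mylk (chromosome 16, 34745210 to 35002420, mm10) had 48.4, 56.6 and 60.0 CPM in tdTom+ libraries 1 to 3 and 34.1, 29.7 and 32.7 CPM in the tdTom- libraries. Every tdTom+ library was above every tdTom- library. The means were 55.0 ± 5.96 and 32.2 ± 2.26 CPM (SD, n = 3), a 1.71-fold rise with a log2 ratio of 0.77 and an SE of 0.15 (edgeR, adjusted p = 0.0285). This enzyme acts in endothelium as well as in muscle, where its activity opens cell junctions. The gene has a long and a short kinase isoform, and the counts do not tell them apart. Leaving out tdTom+ library 2 or 3 or any tdTom- library ended the call, with log2 ratios from 0.71 to 0.82 and adjusted p from 0.0629 to 0.152. Its substrate gene Myl9, the regulatory myosin light chain, had 46.1, 63.6 and 30.6 CPM in tdTom+ and 50.5, 38.6 and 37.8 CPM in tdTom- libraries, with overlapping fractions (log2 ratio 0.14, SE 0.24, edgeR adjusted p = 0.909).

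Actn2 (chromosome 13, 12269426 to 12340760) had 0 reads in each tdTom+ library and 45, 21 and 18 reads in tdTom- libraries 1 to 3. The tdTom- level was low, at 4.37, 1.78 and 2.02 CPM. Actn2 was lower in tdTom+ cells (edgeR adjusted p = 0.034). Against a floor of 3 reads over the pooled tdTom+ group, the difference was at least 29.8-fold. That bound covers counting error only and not the spread between libraries. Actn2 was 1 of 22 tested genes without a read in any tdTom+ library, while no tested gene lacked reads in all tdTom- libraries. Fewer genes had reads in each tdTom+ library (14432 to 15300) than in each tdTom- library (15850 to 16109). The part of this in the absent reads was not tested. The Actn2 call ended with the replicate number as a block (edgeR adjusted p = 0.0566) and in each of the 6 fits without 1 library (edgeR adjusted p from 0.0503 to 0.251). The authors' deposited table lists Actn2 at an adjusted p of 0.000157 and Mylk at 0.000637.

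The upstream sequences of Mylk and Actn2 are shown because these are the genes that passed. That of Myl9 is shown because it is the contractile member with a strict CArG box there. Each runs 5′ to 3′ on the gene's strand over the 200 bases from 250 to 51 before a RefSeq transcript start (GRCm38.p6), in lower case, and capitals mark the CArG box. The start used for Mylk lies inside the gene as annotated.
Mylk, chr16:34784700-34784899, plus strand: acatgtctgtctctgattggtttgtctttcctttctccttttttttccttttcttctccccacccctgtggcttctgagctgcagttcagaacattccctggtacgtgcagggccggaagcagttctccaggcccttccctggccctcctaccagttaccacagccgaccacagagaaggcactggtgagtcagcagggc
Actn2, chr13:12340783-12340982, minus strand: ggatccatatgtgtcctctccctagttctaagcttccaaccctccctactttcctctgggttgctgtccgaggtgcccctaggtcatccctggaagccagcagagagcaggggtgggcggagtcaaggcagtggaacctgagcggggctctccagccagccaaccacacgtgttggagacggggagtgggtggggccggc
Myl9, chr2:156775214-156775413, plus strand: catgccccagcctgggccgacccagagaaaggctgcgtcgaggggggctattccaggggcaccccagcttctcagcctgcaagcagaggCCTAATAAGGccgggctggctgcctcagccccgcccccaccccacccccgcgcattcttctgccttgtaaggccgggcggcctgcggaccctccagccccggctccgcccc
Of the 32 genes, 23 had such a sequence. A strict CArG box on either strand stood in 1 of 10 contractile genes, in 0 of 9 fibroblast-type genes and in 0 of 4 mural genes, and in 1.27% of 27025 genes with a sequence. A strict MEF2 site, the element of a factor active in striated muscle, stood in none of the 23 and in 0.426% of all genes. These are exact matches of letters in this window, and a box outside it would not be seen. A near match with a letter off the strict pattern, such as ccctatatgg in the window of Acta2, was not counted either.

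The contractile genes ranged from abundant to nearly silent in both fractions. Smtn, encoding the actin-binding protein smoothelin, had 332, 347 and 326 CPM in tdTom+ and 357, 367 and 330 CPM in tdTom- libraries. Tpm1, a tropomyosin gene, had 251, 233 and 231 against 273, 246 and 262 CPM. Their log2 ratios were -0.070 and -0.13 with SEs of 0.072 and 0.077 (edgeR, adjusted p = 0.82 and 0.632). Of the Smtn exons 16.3% overlap the transcript Gm11946 on the other strand, so some of its reads may belong there.

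Acta2, encoding smooth muscle alpha-actin, was present at a modest level, with 14.0, 12.1 and 10.3 CPM in tdTom+ and 19.2, 17.1 and 11.6 CPM in tdTom- libraries. The fractions overlapped, and the log2 ratio was -0.40 with an SE of 0.27 (edgeR, adjusted p = 0.686). Tagln, the actin-bundling gene transgelin, had 4.56 to 6.13 CPM in tdTom+ and 5.49 to 9.12 CPM in tdTom- libraries, but 62.4% of its exons overlap the antisense gene Gm48529. Tpm2, the other muscle tropomyosin gene here, had 5.17 to 8.79 and 7.11 to 10.4 CPM. Neither Tagln nor Tpm2 passed, at log2 ratios of -0.37 and -0.25 (SE 0.37 and 0.35).

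Genes that define mature smooth muscle were at or near 0. Myh11, the smooth muscle myosin heavy chain gene, had 0, 0 and 2 reads in tdTom+ and 0, 7 and 6 in tdTom- libraries. Lmod1, encoding the filament nucleator leiomodin, had at most 3 reads in any library, and Actg2, encoding enteric smooth muscle actin, had 0, 10 and 2 against 3, 11 and 20. All 3 were below edgeR's filter. DESeq2, which keeps more genes, gave adjusted p = 0.834 for Actg2 and 0.853 for Myh11. Cnn1, the calponin gene, had 0, 46 and 13 reads in tdTom+ libraries and a steady 19, 22 and 14 in tdTom- libraries. Des, encoding the muscle intermediate filament desmin, had 11, 0 and 93 reads in tdTom+ and 24, 35 and 10 in tdTom- libraries. For both genes the tdTom+ libraries spanned a wider range than the tdTom- libraries. The log2 ratio of Des was 0.58 (SE 1.19) with all libraries and -2.12 without tdTom+ library 3, and that of Cnn1 was 0.038 (SE 1.1) with all and -1.53 without tdTom+ library 2, so neither has a settled direction.

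**Figure D2:**
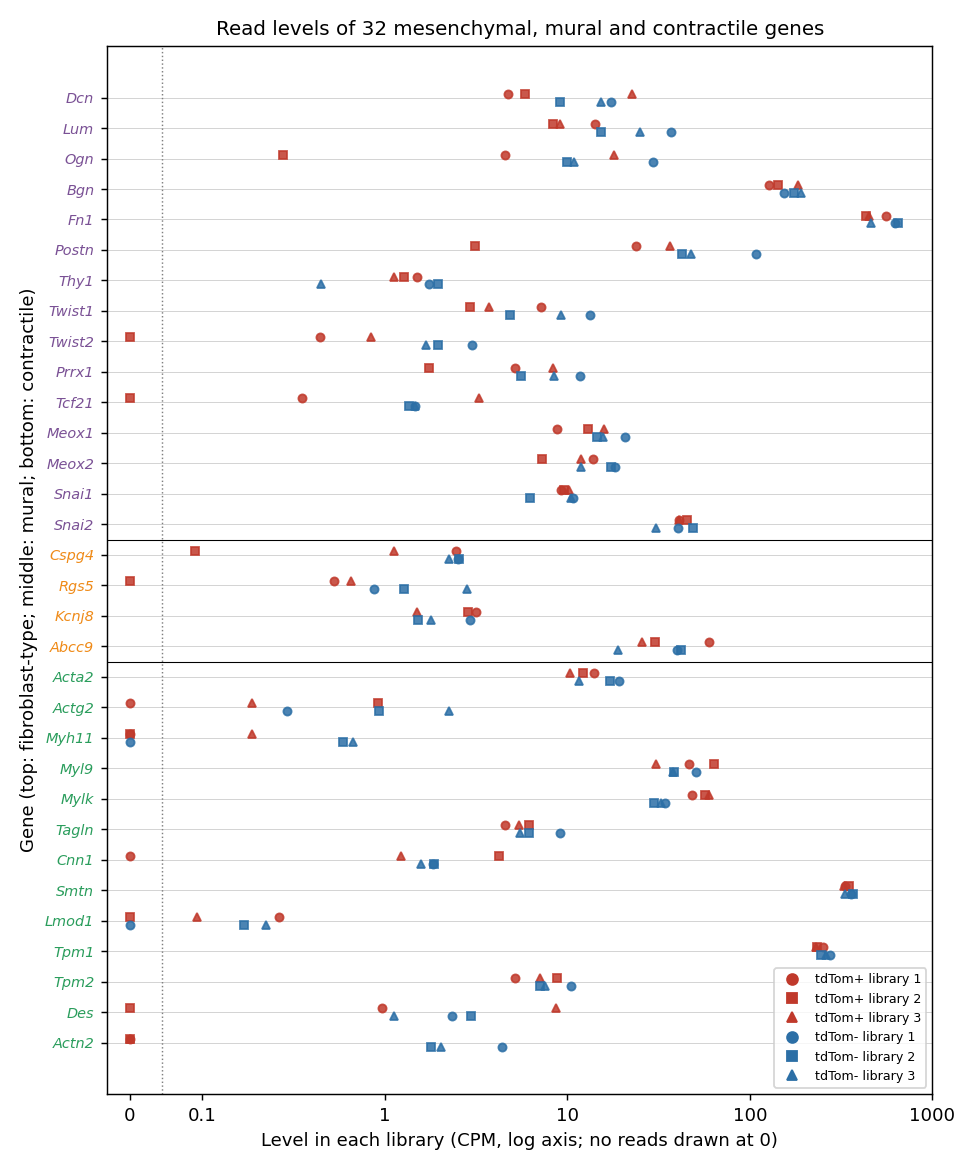
Each row is a gene and each symbol the CPM of a library on a log axis, tdTom+ in red and tdTom- in blue, with libraries without a read drawn at 0. Smtn, Tpm1 and Fn1 lie above 200 CPM in all 6 libraries, Myh11, Lmod1 and Actg2 lie at or below 2.24 CPM, and the fractions are apart for Mylk, Actn2, Lum, Postn, Twist2 and Rgs5.

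No mural gene passed. Rgs5, encoding a regulator of G protein signalling used as a pericyte marker, had 6, 0 and 7 reads in tdTom+ and 9, 15 and 25 in tdTom- libraries. The fractions did not overlap, but Rgs5 was below edgeR's filter and did not pass with DESeq2 (log2 ratio -2.06, adjusted p = 0.585). Cspg4, the pericyte proteoglycan gene NG2, had 28, 1 and 12 reads against 26, 30 and 20 (log2 ratio -0.98, SE 0.91, edgeR adjusted p = 0.789). All of this difference sat in tdTom+ libraries 2 and 3, since library 1 was within the tdTom- range on the CPM scale (2.46 beside 2.24 to 2.54).

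Abcc9 and Kcnj8 encode the regulatory and the pore-forming subunit of a potassium channel of pericytes and lie 16.2 kb apart on chromosome 6. Abcc9 was the more abundant, with 59.7, 30.3 and 25.6 CPM in tdTom+ and 39.8, 41.8 and 18.9 CPM in tdTom- libraries. Kcnj8 had 3.16, 2.84 and 1.5 CPM against 2.91, 1.52 and 1.79 CPM. Neither differed beyond the spread between libraries (log2 ratios 0.20 and 0.27, SE 0.35 and 0.65, edgeR adjusted p = 0.913 and 0.939). Per kilobase of annotated exon, a scale that makes an approximate comparison between genes possible, Abcc9 had 4.30 and Kcnj8 0.897 CPM per kb as the mean of all libraries. The lowest Abcc9 library, at 2.26, did not overlap the highest Kcnj8 library, at 1.24.

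Among the matrix genes of fibroblasts, lumican came closest to the threshold. Lum (chromosome 10, 97565128 to 97572703) had 14.1, 8.33 and 9.07 CPM in tdTom+ and 36.8, 15.2 and 24.9 CPM in tdTom- libraries, without overlap. Its log2 ratio was -1.28 with an SE of 0.34 (edgeR, adjusted p = 0.111). It passed with the replicate number as a block (adjusted p = 0.0213) and with DESeq2 (adjusted p = 0.0123), the same value as in the authors' deposited table (0.0123).

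Postn, encoding the matricellular protein periostin, had 23.8, 3.11 and 36.6 CPM in tdTom+ and 108, 42.4 and 47.8 CPM in tdTom- libraries. All tdTom+ values lay below all tdTom- values, yet the tdTom+ libraries differed widely among themselves, and the log2 ratio of -1.64 with an SE of 0.88 did not pass (edgeR adjusted p = 0.634). Ogn, the proteoglycan osteoglycin, had 52, 3 and 191 reads in tdTom+ and 305, 117 and 97 in tdTom- libraries. Dcn, decorin, had 54, 64 and 242 reads against 178, 108 and 136. In both Ogn and Dcn, tdTom+ library 3 lay within or above the tdTom- range and the other tdTom+ libraries below it. Without that library their log2 ratios moved from -1.15 and -0.33 to -2.78 and -1.39, neither of which passed (edgeR adjusted p = 0.269 and 0.104).

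The most abundant fibroblast-type genes were Fn1, encoding fibronectin, and Bgn, encoding the proteoglycan biglycan. Fn1 had 559, 435 and 452 CPM in tdTom+ and 627, 648 and 458 CPM in tdTom- libraries. Bgn had 127, 143 and 183 against 154, 174 and 190 CPM. Their log2 ratios of -0.26 and -0.20 with SEs of 0.13 and 0.13 did not pass (edgeR adjusted p = 0.54 and 0.693). Thy1, the surface glycoprotein CD90, was near the detection limit at 4 to 23 reads per library.

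Among the transcription factors, Twist1, a factor of mesenchyme and neural crest, had 7.19, 2.93 and 3.74 CPM in tdTom+ and 13.3, 4.82 and 9.18 CPM in tdTom- libraries (log2 ratio -0.97, SE 0.48, edgeR adjusted p = 0.526). Its relative Twist2 had 5, 0 and 9 reads against 31, 23 and 15, without overlap (log2 ratio -2.35, SE 1.03, edgeR adjusted p = 0.446), but 46.5% of its exons overlap the antisense gene Gm29100. Prrx1, a limb and craniofacial mesenchyme factor, had 59, 19 and 89 reads against 121, 66 and 75. Tcf21, a factor of visceral and epicardial mesenchyme, had 4, 0 and 35 reads in tdTom+ libraries and a narrow 15, 16 and 13 in tdTom- libraries. Here too tdTom+ library 3 was the highest of all and library 2 was without a read.

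The remaining factors varied less. Meox2, a homeobox gene of mesoderm that is also expressed in endothelium, had 13.8, 7.23 and 11.8 CPM in tdTom+ and 18.2, 17.3 and 11.8 CPM in tdTom- libraries. Meox1 had 8.77, 12.9 and 15.8 against 20.7, 14.6 and 15.7 CPM. Their log2 ratios of -0.53 and -0.44 with SEs of 0.30 and 0.28 did not pass (edgeR adjusted p = 0.615 and 0.655). Snai1 and Snai2 encode repressors that drive the loss of cell adhesion when epithelium or endothelium turns into mesenchyme. Snai2 had 41.0, 45.4 and 41.1 CPM in tdTom+ and 40.6, 48.8 and 30.7 CPM in tdTom- libraries, and Snai1 had 9.21 to 10.2 and 6.26 to 10.7 CPM. They were the only fibroblast-type genes with a fold change above 0, with log2 ratios of 0.085 and 0.088 and SEs of 0.18 and 0.31 (edgeR, adjusted p = 0.929 and 0.962), and each fell below 0 when a tdTom- library was left out (Snai2 without library 3, Snai1 without library 2).

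Read library by library, 2 libraries held most of the extreme values of the fibroblast-type genes. Library 2 of tdTom+ held the lowest value of the 6 libraries for 9 of the 15 genes, where it held the lowest for 21.6% of all tested genes. Library 1 of tdTom- held the highest value for 9 of the 15, beside 13.2% of all genes. The median SD of log2(CPM + 1) over the fibroblast-type genes was 0.439 in tdTom+ and 0.386 in tdTom- libraries, beside 0.228 and 0.157 over all genes. Over the tested contractile genes it was 0.194 and 0.246. The fibroblast-type genes other than Fn1 summed to 262, 241 and 365 CPM in tdTom+ libraries and to 467, 354 and 378 CPM in tdTom- libraries, so that tdTom+ library 3 lay inside the tdTom- range. The summed contractile genes were flat by comparison, at 702, 732 and 680 CPM against 762, 721 and 695 CPM.

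**Figure D3:**
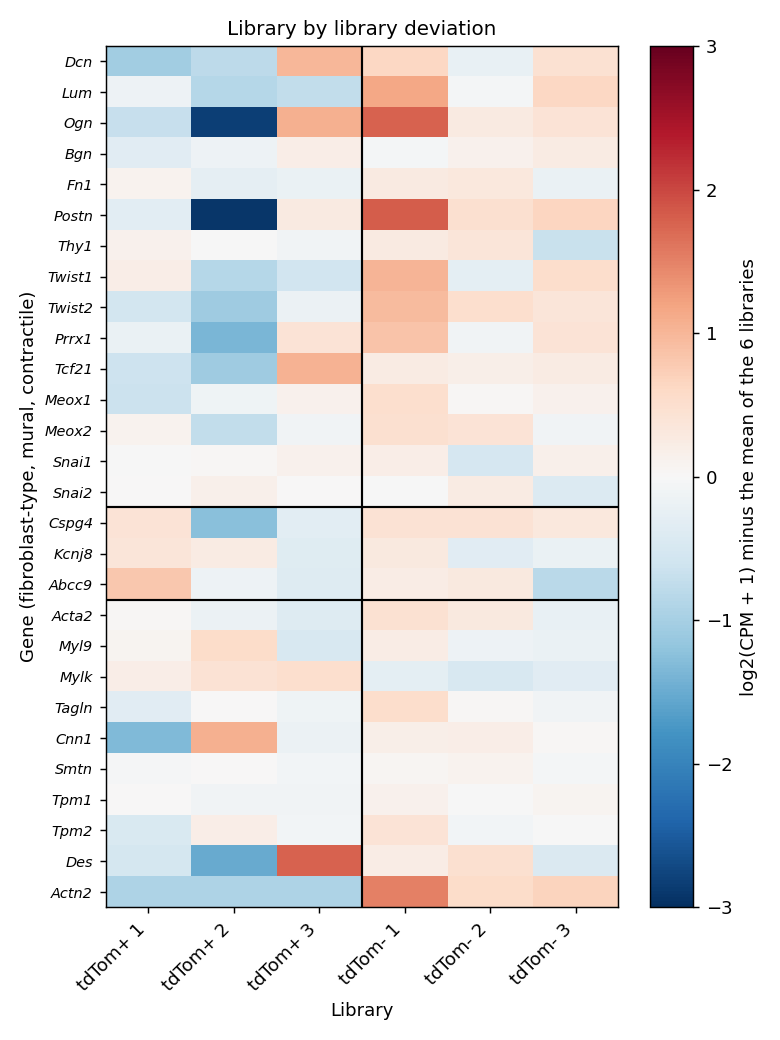
Colours give log2(CPM + 1) in each library minus the mean of the 6 libraries, red above and blue below, for the 28 tested genes in rows. Ogn, Postn, Prrx1, Tcf21 and Des are low in tdTom+ library 2, Dcn, Ogn, Tcf21 and Des are high in tdTom+ library 3, and Mylk is the gene that is above its mean in all tdTom+ and below it in all tdTom- libraries.

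Scaled by exon length, the order of levels put genes of both kinds at the top. The length merges the exons of all annotated transcripts of a gene, expressed here or not, so the order is approximate. Smtn led with 78.3 CPM per kb as the mean of 6 libraries (74.4 to 83.9), above Fn1 at 45.3 (37.3 to 55.4) without overlap. Fn1, Tpm1 (38.4) and Myl9 (38.3) did not differ beyond their ranges. Bgn followed at 26.5 and Snai2 at 20.4, whose lowest library (15.2) lay just above the highest library of Lum (15). From Lum at 7.37 down to Dcn at 2.14 CPM per kb, neighbours overlapped throughout. The called gene Mylk was in this middle range at 4.88 CPM per kb in tdTom+ and 2.86 in tdTom- libraries. The last places were held by Rgs5 (0.224), Cspg4 (0.153), Myh11 (0.0318) and Lmod1 (0.0317), and their ranges overlapped.

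**Figure D4:**
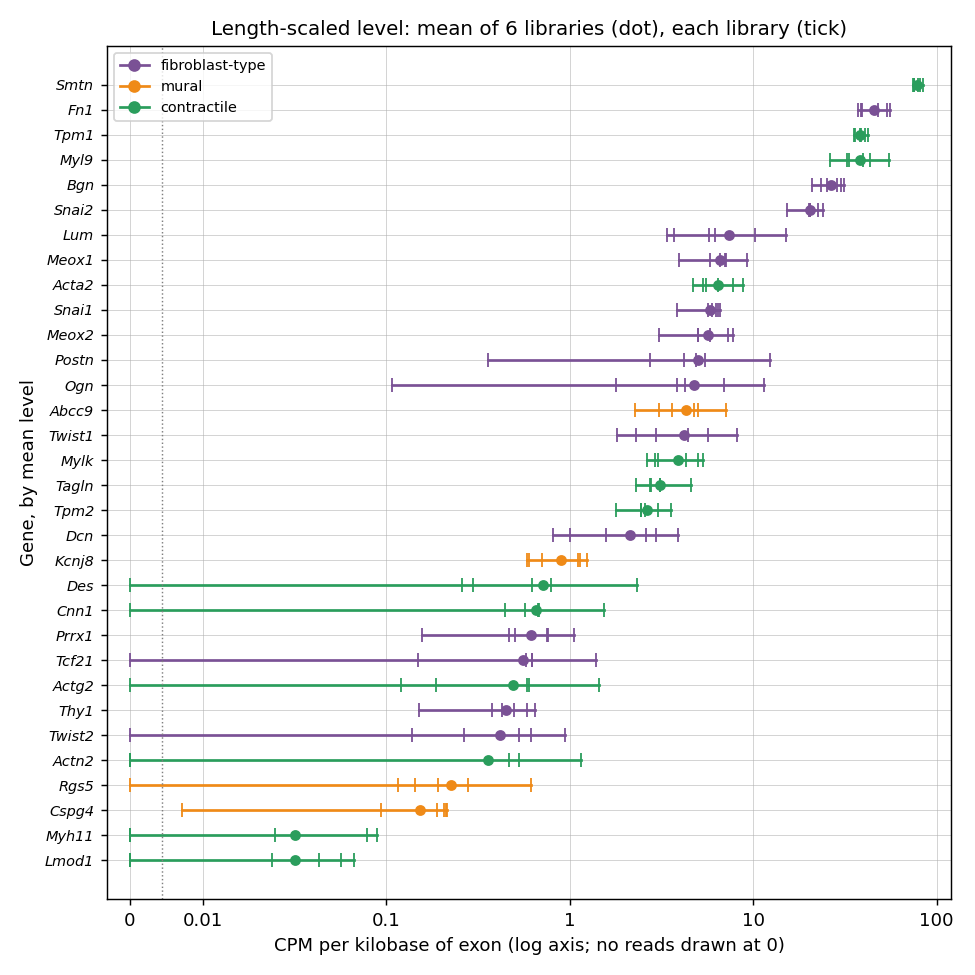
The horizontal axis gives CPM per kilobase of exon on a log scale, with a dot at the mean of the 6 libraries, a tick for each library and the line joining the lowest and highest. Smtn stands at the top at 78.3, and Myh11 and Lmod1 at the bottom near 0.03.

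Other genes of the same cell types were read from lists that exclude the 32 and were chosen with earlier results of these data known. Of 24 tested fibroblast genes 5 fell (20.8%, beside 0.814% of all tested genes) and 0 rose, with a median of -0.72. The 3 with the smallest p were the cadherin genes Cdh2, with 60.2 ± 4.69 CPM in tdTom+ and 106 ± 10.2 CPM in tdTom- libraries, and Cdh11, with 24.3 ± 7.84 against 77.4 ± 26.3 CPM, and the microfibril gene Mfap5, with 3.17 ± 0.928 against 14.1 ± 4.12 CPM (SD, n = 3, edgeR adjusted p = 0.00741, 0.0163 and 0.0193). The others were Fbln2 and Fstl1, named because they complete the count. The collagen genes of this list did not pass with edgeR. Col1a1 had 304, 303 and 1322 reads in tdTom+ and 1859, 492 and 845 in tdTom- libraries, again with tdTom+ library 3 inside the tdTom- range. Col5a2 was lower in tdTom+ without overlap, at a log2 ratio of -0.37 (edgeR adjusted p = 0.117), and passed with DESeq2 (adjusted p = 0.0301). Col1a1 and Col5a2 were chosen after their values were seen. Library 2 of tdTom+ was lowest for 12 of these 24 genes, beside 21.6% of all genes. Library 1 of tdTom- was highest for 17, beside 13.2%.

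Of 23 tested genes listed for smooth muscle outside the 32, 3 fell (13%, beside 0.814% of all tested genes) and 0 rose, with a median of -0.018. They were the elastin gene Eln, the elastic fibre gene Fbln5 and the actinin-binding adaptor gene Pdlim3, with log2 ratios of -2.29, -1.34 and -2.73 with SEs of 0.19, 0.24 and 0.23 (edgeR, adjusted p = 0.000292, 0.0246 and 0.000331). Myocd, encoding myocardin, had 0 reads in all tdTom+ libraries and 0, 11 and 4 in tdTom- libraries, while Srf had 413 to 604 reads in all 6. Both were singled out as the regulators of the contractile genes. Of 11 tested mural genes outside the 32, 1 fell (9.09%, beside 0.814% of all tested genes) and 0 rose, with 9 at a fold change below 0. In 4 of them (36.4%, beside 9.35% of all genes) the fractions did not overlap, with tdTom+ lower. The gene that fell was the forkhead gene Foxf1, at 11.3 ± 0.502 CPM in tdTom+ and 34.5 ± 4.51 CPM in tdTom- libraries (SD, n = 3, edgeR adjusted p = 0.00244). Its relatives Foxc2 and Foxc1 came next and did not pass, at log2 ratios of -0.63 and -0.29 (edgeR adjusted p = 0.223 and 0.321). Genes of these lists need not be made by mural or smooth muscle cells alone, and which cells made their reads was not tested. None of the 16 cytoplasmic actomyosin genes, the non-muscle counterparts of the contractile genes, passed (edgeR, with 1 at an unadjusted p under 0.05 and 0 calls with DESeq2), with a median of -0.0012 and summed levels of 12512 to 13249 CPM. Their smallest p belonged to the non-muscle myosin genes Myh10 and Myh9 and the tropomyosin gene Tpm4, at log2 ratios of -0.26, 0.17 and 0.08. None of the 14 other factors of mesenchyme and of epithelial to mesenchymal transition passed (edgeR, with 7 at an unadjusted p under 0.05), where DESeq2 gave 3 lower. With the replicate block 1 passed as lower, Sox9, a factor of cartilage and of heart valve mesenchyme. Sox9 had 178, 42 and 88 reads in tdTom+ and 311, 297 and 189 in tdTom- libraries (log2 ratio -1.46, edgeR adjusted p = 0.136, and -1.63 and 0.0246 with the block). In that list the repressor gene Zeb2 had 67.7 ± 5.98 against 48.0 ± 5.36 CPM and the heart and endothelial factor gene Tbx20 4.5 ± 2.07 against 15.6 ± 6.37 CPM (SD, n = 3, edgeR adjusted p = 0.125 and 0.0653).

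Markers of other tissues were looked at beside the Actn2 and fibroblast results. Of 23 striated muscle genes 11 could be tested and none passed (edgeR, with 3 at an unadjusted p under 0.05 and 0 calls with DESeq2). Their summed level was 45.8, 60.7 and 52.1 CPM in tdTom+ and 99.9, 90.6 and 62.1 CPM in tdTom- libraries. Tnnt2, the cardiac troponin T gene, had 41, 44 and 20 reads against 80, 93 and 92, and did not pass (edgeR adjusted p = 0.156). Tnni1, a troponin I gene, and Actc1, cardiac actin, were next, with log2 ratios of -0.65 and -1.61 (edgeR adjusted p = 0.256 and 0.321). Of the 11 tested genes, 8 had a fold change below 0 and 3 above it. The myosin genes Myh6 and Myl7, chosen after their values were seen, went the other way. Their log2 ratios were 0.86 and 0.42 (edgeR adjusted p = 0.738 and 0.828). Nkx2-5, a cardiac muscle factor gene chosen after its values were seen, had at most 4 reads in any library. Among the striated muscle genes too low to test, Myl3, Myh3, Myh7 and Mybpc3 were lower in tdTom+ without overlap. The other untested striated muscle genes, Nkx2-5 among them, overlapped between fractions. The share of all untested genes without overlap was not taken. Dazl and Dppa3, germ cell genes that like Actn2 had 0 reads in every tdTom+ library, had 115 to 279 in the tdTom- libraries, and Dppa5a had at most 2 against 223 to 473. The 7 germ cell genes summed to 1.75 to 3.02 CPM there and 71.1 to 131 CPM in tdTom- libraries, and hepatoblast genes to 161 to 175 and 210 to 457 CPM. Of 8 tested hepatoblast genes, led by Dlk1, Trf and Ttr, none passed (edgeR, with 2 at an unadjusted p under 0.05 and 0 calls with DESeq2). With the replicate block in edgeR 2 passed as lower, beside 1.27% of all genes. They were Dlk1 (adjusted p = 0.000865) and Afp (adjusted p = 0.00204), of which Afp overlapped between fractions. Megakaryocyte genes went the other way, at 257 to 485 and 28 to 44.2 CPM, with tdTom+ library 2 highest. Of these 10 genes 6 rose (60%, beside 0.769% of all tested genes), led by Itga2b, Tubb1 and Itgb3. Neural genes summed to 431 to 458 and 428 to 445 CPM. The largest parts of these sums were Nes, at means of 208 and 215 CPM, and Gap43. Of the 11 tested, 8 had a fold change below 0, with a median of -0.26. The fractions did not overlap in 3 with tdTom+ lower (27.3%, beside 9.35% of all genes) and in 1 with tdTom+ higher. Of these 11 neural genes 1 rose (9.09%, beside 0.769% of all tested genes) and 0 fell. It was the growth cone gene Gap43, with 175 ± 9.68 CPM in tdTom+ and 126 ± 5.15 CPM in tdTom- libraries (SD, n = 3, edgeR adjusted p = 0.0242), a call lost without any 1 library but tdTom+ library 2. Stmn2 and Map2, also neuronal, had log2 ratios of -0.62 and -1.36 and did not pass (edgeR adjusted p = 0.0879 and 0.107). The part of these cell types in the values of Mylk, Actn2 and the fibroblast-type genes was not tested.

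**Figure D5:**
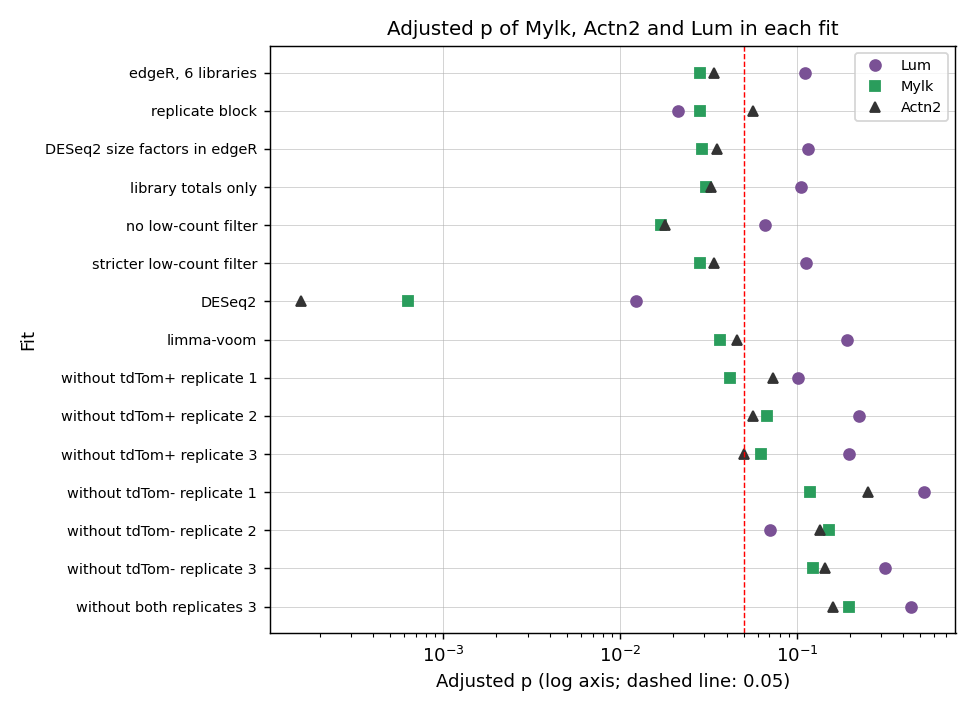
The horizontal axis gives the adjusted p of Mylk, Actn2 and Lum on a log scale, each row a fit, with a dashed line at 0.05. Mylk and Actn2 pass in most fits with all 6 libraries and, with the exception of Mylk without tdTom+ library 1, in none that leaves out a library; Lum passes with the replicate block and with DESeq2.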

How the data were processed

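RNA was amplified with a SMART-seq kit and made into libraries with Nextera XT, per the labels' protocols; neither step marks strand, so reads of a gene and an antisense partner cannot be told apart. The mm10 build and the tools featureCounts 1.4.6, STAR 2.5.2b, DESeq2, Trimmomatic 0.36.4 and Picard 2.7.1.1 appear in the submitters' processing notes, without their roles. The authors deposited whole-number counts per gene, used here as deposited; 6 normalized per-sample columns were not used. Their log2 fold changes and adjusted p-values, deposited in the same table as tdTom- over tdTom+, were turned round.

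The main test was that of edgeR 4.0.16 under R 4.3.3 (robust quasi-likelihood F-test, two-sided, TMM factors, filterByExpr at a minimum count of 10), with all 6 libraries, no block, and Benjamini-Hochberg adjustment over 13142 genes. The test was checked on simulated data. Fold changes are tdTom+ minus tdTom- and their SE is the fold change over the square root of F. CPM uses TMM-scaled library sizes. A floor of 3 counts was 0.254 to 0.336 CPM and covers counting error only, since reads carry no molecular identifiers. Exon lengths, merged over all annotated transcripts of a gene, and overlaps come from GENCODE M21 (mm10). The sources used here do not give the authors' annotation. At 50 bases, Tagln, Twist2 and Smtn shared 58.3%, 45.7% and 9.46% of their transcript words with other genes, and no other member over 5%. Promoters are RefSeq's.

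Alternatives were the replicate block, DESeq2 1.42.0, limma-voom (limma 3.58.1), DESeq2 size factors, library totals, 2 filters and leaving out each library. No pair of libraries agreed within sampling noise (mean chi-square per gene 7.85 to 19). The protocol divides the cells of 3 embryos into both fractions but does not tie numbers to embryos. Same-numbered libraries had deviations from the group means that correlated at r = 0.105, 0.0892 and 0.161 (numbers 1, 2 and 3), each library best with its own. Both libraries 3 are female, so the number was treated as pairing in the replicate block. The main test did not use this pairing. The labels do not say that each library came from a separate embryo, so p-values measure only the spread between these libraries, which may be technical. The text names all 32 genes, the sort genes and up to 3 genes with the smallest p of each further list. Members, lists and this pairing were chosen with earlier results of these data known.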

Additional observations from a re-analysis of the deposited data

How the results depend on the processing

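Over all alternatives, 355 fold changes of the tested members kept their direction and side of the threshold, 14 lost a call, 2 gained one and 21 changed sign, none of these a called value. Only 1 member passed as higher and 1 as lower, and leaving out a library gave 0 to 1 higher and 0 lower; without both libraries 3, chosen after the data were seen, both counts were 0. DESeq2 gave 2 lower members, 1 of them fibroblast-type. The replicate block (number as pairing) gave 1 lower fibroblast-type and 0 lower contractile members. Under the block the sign changed for Thy1 0.086, Cnn1 -0.83 and Des -0.93, and under limma-voom for Thy1 0.058, Cnn1 -1.60 and Des -1.54. Without both libraries 3, Snai2 was at -0.051 and Des at -2.42. Over the fits without a library, log2 fold changes ranged from -1.39 to 0.038 for Dcn, from -0.51 to 0.23 for Thy1, from -2.92 to 0.34 for Tcf21, from -0.13 to 0.22 for Snai1, from -0.075 to 0.25 for Snai2, from -0.27 to 0.42 for Abcc9, from -0.14 to 0.37 for Myl9, from -1.53 to 0.62 for Cnn1, from -2.12 to 1.16 for Des, and from -0.58 to 1.18 for Krt19 of the further lists. Of the other fibroblast genes 8 were lower with DESeq2, 1 without both libraries 3, and 1 to 5 without a library. Of the other mural genes 0 were lower without both libraries 3. Of the other mesenchymal factors 1 was lower with the block, 1 with no filter, 3 with DESeq2 and 0 to 1 without a library. Without its most abundant gene, the mean summed CPM in tdTom+ and tdTom- was 289 and 400 for the fibroblast-type genes, 4.11 and 6.16 for the mural genes, and 370 and 375 for the contractile genes. The cause of these changes was not tested. The 4 members below edgeR's filter had at most 25 reads in a library, which limits the precision of their values.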

Other observations

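Epicardial and mesothelial genes, which mark the lining of the heart and body cavities, varied widely between libraries. Krt8, a keratin gene, had 319, 86 and 0 reads in tdTom+ libraries 1 to 3 and 79, 115 and 31 in tdTom- libraries, and Upk3b, a uroplakin gene, had 120, 65 and 14 against 18, 26 and 0. Library 1 of tdTom+ was highest for 7 of the 8 tested genes of this list, beside 15.8% of all genes, and library 3 of tdTom+ lowest for 5, beside 23.1%. Aldh1a2, a retinoic acid synthesis gene, differed from these, with 5, 1 and 75 reads in tdTom+ and 76, 53 and 75 in tdTom- libraries. Its log2 ratio was -1.42 (edgeR adjusted p = 0.708) and passed without tdTom+ library 3 (-4.60, adjusted p = 0.0144). The keratin gene Krt19 had 105, 23 and 13 reads against 31, 29 and 18. None of the 8 passed (edgeR, 0 at an unadjusted p under 0.05 and 0 calls with DESeq2). Krt8 was chosen after its values were seen.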
